A study of Mus musculus with 6 samples.

Results

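The expression of 8 genes that encode Janus kinases and STAT transcription factors, Jak1, Jak2, Tyk2, Stat3, Stat4, Stat5a, Stat5b and Stat6, was examined in mouse CD8 T cells. The genes were taken by name, as a list, and are 8 of the 32285 genes counted. CD8 T cells were sorted as CD45+ CD3+ CD8+ Tomato+ cells from B16-OVA tumors, a melanoma line that expresses ovalbumin, and from the draining lymph node (LN), 12 days after engraftment by the labels, while the study's methods give a range of days that starts there. Control mice carried CD8-Cre and the Rosa26Tomato reporter, and CD8-IFNgRKO mice carried in addition IFNgR1flox/flox, so that Cre under a CD8α promoter removes the receptor chain in CD8 T cells. All mice bore a tumor and all sorted cells came from Cre+ mice, which were 6 to 10 weeks old. Each of the 4 expression libraries held pooled cells of 3 mice, and the 2 tumor libraries had matched TCR sequencing. With 1 library per tissue and genotype, differences between mice could not be measured and no test between groups was made.

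JAKs are tyrosine kinases held on the inner part of cytokine receptors. When a cytokine brings receptor chains together, the JAKs phosphorylate each other and the receptor, and STAT proteins dock there, are phosphorylated in turn and move to the nucleus as dimers to bind DNA. In T cells this route carries the signals of interferons, of cytokines such as IL-2, IL-7 and IL-15, and of IL-6, IL-12 and IL-21. The measurement here is transcript abundance, which gives neither the amount of the proteins nor their phosphorylation.

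Stat5b, Stat5a and Stat3 lie next to each other on mouse chromosome 11, with 346 bases between Stat5b and Stat5a and 1636 bases between Stat5a and Stat3 (GRCm38.p6). Stat5a and Stat5b are close copies, and their resemblance is visible upstream of an internal RefSeq start of each gene, at chr11:100860422-100860471 (plus strand) and chr11:100822574-100822623 (minus strand). The 50-base stretches shared 44 bases at the same position, and the capitals mark an identical run of 16 bases.
Stat5a: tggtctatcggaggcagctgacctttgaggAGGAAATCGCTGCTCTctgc
Stat5b: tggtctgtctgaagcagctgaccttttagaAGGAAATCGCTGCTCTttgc
Whether the counting split reads between the copies was not tested.

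Spaced half-sites of STAT dimers and the core of an interferon response element were looked for in the 250 bases upstream of the RefSeq starts, 11 windows for the 8 genes. TTCNNNGAA was in 0 of the 11 member windows and in 7.02% of all 32851 windows, and TTCNNNNGAA in 0 of 11 and 5.85%. GAAANNGAAA, searched on both strands after the Stat4 windows had been read, was in 1 of 11 and in 2.98% of all windows. The match was in the window of the second Stat4 start, at chr1:52007990-52008239 on the plus strand, and began 97 bases upstream of that start. The window is shown because Stat4 had the largest difference between genotypes among the members, and the capitals mark the match.
Stat4: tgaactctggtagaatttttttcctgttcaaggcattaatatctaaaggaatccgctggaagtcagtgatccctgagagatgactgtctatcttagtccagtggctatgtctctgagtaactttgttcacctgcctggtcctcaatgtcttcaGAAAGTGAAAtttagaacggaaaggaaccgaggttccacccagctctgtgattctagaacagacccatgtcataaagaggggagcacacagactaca
A match of letters is a description and does not show that a factor binds there.

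The libraries kept 6639 to 8632 cells and 28834447 to 93932505 UMIs, a UMI being 1 captured transcript molecule. Median UMIs per cell were 4051 and 3863 in the control and CD8-IFNgRKO LN and 6305 and 9398.5 in the tumors. Levels are given as CPM, the UMIs of a gene divided by all UMIs of the library and scaled to counts per 1000000, with exact Poisson 95% intervals that cover counting error only. In each pair of libraries, 1.38% to 2.19% of the barcodes of a library also occurred in the other. Ifngr1, the targeted gene, was at 182 CPM in control LN, 137 in CD8-IFNgRKO LN, 718 in control tumor and 238 in CD8-IFNgRKO tumor, lower with the label in both tissues but not absent, and whether the remaining UMIs came from outside the deleted part was not tested. All 6 CD8 T cell markers, which include genes of the cell filter, were above 10 CPM in each library and summed to 5186 to 8496 CPM. The 7 macrophage markers summed to 1.94 to 15.2 CPM, the 4 B cell markers to 0.421 to 22.2, the 3 CD4 T cell markers to 6.17 to 22.1 and the 4 melanoma markers to 0.201 to 3.22. The 3 NK cell markers summed to 2.17 and 2.36 CPM in the LN and 161 and 131 in the tumors, nearly all from Klre1, while Ncr1 was at or near 0. The 4 fibroblast and endothelial markers summed to 4.42 to 49.7 CPM, nearly all from Pecam1. The part of these cells in the members' values was not tested.

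Jak1 pairs with a partner kinase on the receptors of interferons, of the IL-2 family and of the IL-6 family. It was at 452 CPM (445 to 460) in control LN, 478 (470 to 486) in CD8-IFNgRKO LN, 258 (254 to 262) in control tumor and 228 (225 to 231) in CD8-IFNgRKO tumor. Both LN libraries were above both tumor libraries, and the intervals of no pair of libraries overlapped. Jak2, which serves the IFNγ and IL-12 receptors, was at 33.9, 40.3, 31.8 and 28.5 CPM in the same order. Its highest level was in CD8-IFNgRKO LN and its lowest in CD8-IFNgRKO tumor, while the intervals of control LN and control tumor overlapped. Tyk2, a partner on the type I interferon and IL-12 receptors, was at 23.1, 25.1, 28.9 and 28.5 CPM. Its levels in the tumors were close to each other and above those of the LN, and the intervals overlapped within each tissue.

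Stat3 is activated by IL-6, IL-10 and IL-21. It was at 126 CPM (122 to 130) in control LN, 103 (99.4 to 107) in CD8-IFNgRKO LN, 492 (486 to 497) in control tumor and 420 (416 to 424) in CD8-IFNgRKO tumor. It was high in both tumors and, in each tissue, lower in the CD8-IFNgRKO library. Stat4, activated by IL-12 and type I interferon, was at 92.9 CPM (89.5 to 96.5), 107 (103 to 111), 162 (159 to 165) and 108 (106 to 110). The control tumor library stood above the other 3, and the intervals of CD8-IFNgRKO LN and CD8-IFNgRKO tumor overlapped.

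Stat5a and Stat5b transmit the signals of IL-2, IL-7 and IL-15. Stat5a was at 39.0 and 38.4 CPM in control and CD8-IFNgRKO LN and at 21.6 and 25.7 CPM in the tumors. Stat5b was at 72.4, 80.1, 41.1 and 42.5 CPM in the same order. Both paralogs were lower on this scale in the tumors. Stat5b took 65.0% of the Stat5a and Stat5b UMIs in control LN (exact binomial interval 63.4 to 66.6), 67.6% in CD8-IFNgRKO LN (66.0 to 69.2), 65.6% in control tumor (64.0 to 67.1) and 62.3% in CD8-IFNgRKO tumor (61.1 to 63.5). The share was lowest in CD8-IFNgRKO tumor, and its interval overlapped that of control LN alone. Stat6, the STAT of the IL-4 receptor, was at 73.1 and 75.5 CPM in the LN and 46.7 and 45.8 in the tumors, and its intervals overlapped between genotypes in each tissue.

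**Figure D1:**
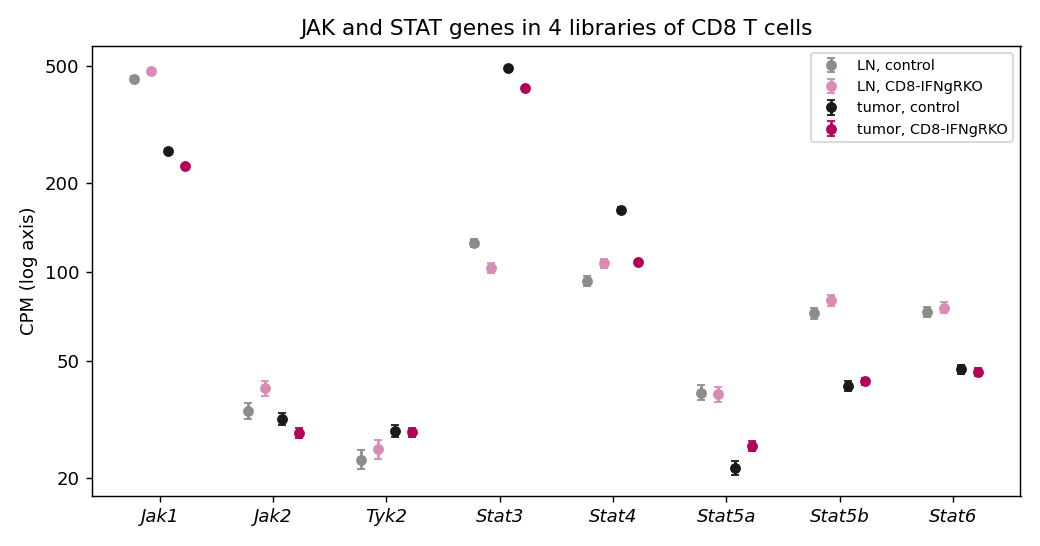
CPM of the 8 genes (log axis) in the 4 libraries, each point 1 library and each bar its exact Poisson 95% interval, which covers counting error only. Stat3 sits at 420 and 492 CPM in the tumors against 103 and 126 in the LN, and Stat4 in the control tumor, at 162 CPM, is above its other 3 libraries.

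CD8-IFNgRKO and control cells were compared first in the tumor. A gene was counted as past the threshold when its log2 ratio of CPM was beyond 0.32 in either direction. Stat4 was lower in CD8-IFNgRKO tumor cells, with a log2 ratio of CPM of -0.59 (exact conditional binomial 95% interval -0.63 to -0.55, counting error only). It was the 1 member of 8 past the threshold, and no member was past it in the higher direction. Among 7673 genes that reached 10 CPM in one or both tumor libraries, 11.9% were past it in the lower and 16.7% in the higher direction. The members thus passed no more often than genes at large, and Stat4 was at percentile 3.87 of all log2 ratios. The next lowest log2 ratios were those of Stat3 at -0.23 (-0.25 to -0.21), Jak1 at -0.18 (-0.21 to -0.15) and Jak2 at -0.16 (-0.24 to -0.07). These 3 were below 0 beyond counting error, at percentiles 18.9, 23.9 and 25.9 of all genes. Jak2 was at -0.03 when the CPM of each cell was averaged. Stat5a was at 0.25 (0.15 to 0.35) and Stat5b at 0.05 (-0.03 to 0.12), which became 0.12 and 0.19 when each cell was thinned to 1600 UMIs. Tyk2 at -0.02 and Stat6 at -0.03 had intervals that included 0. The median over the members was -0.09, against 0.02 over all genes compared.

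Counted per cell, the picture differed, because CD8-IFNgRKO tumor cells held more UMIs. UMIs per 100 cells in control and CD8-IFNgRKO tumor were 136 and 117 for Stat4, and 411 and 457 for Stat3. Stat4 was the 1 member lower on both scales in CD8-IFNgRKO tumor cells. Jak1 was at 216 and 248 UMIs per 100 cells, Stat5a at 18.1 and 28.0, Stat5b at 34.4 and 46.2 and Stat6 at 39.1 and 49.9. The depth of the libraries and the RNA content of the cells cannot be told apart here.

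In the LN, 0 of the 8 members passed the same threshold between genotypes. Of 7421 genes, 1.41% were past it in the higher and 1.24% in the lower direction, 2.65% in all. Stat3 had the lowest log2 ratio of CD8-IFNgRKO over control, -0.29 (-0.36 to -0.22), at percentile 1.55 of all genes. Jak2 had the highest, 0.25 (0.13 to 0.37), at percentile 96.7, followed by Stat4 at 0.20 (0.13 to 0.28). Both lay toward the upper edge of a narrow distribution, whose interquartile range was 0.14, against 0.39 in the tumor. Stat5b at 0.14 (0.06 to 0.23) and Jak1 at 0.08 (0.05 to 0.11) were above 0 beyond counting error. Tyk2 at 0.12, Stat6 at 0.05 and Stat5a at -0.02 had intervals that included 0.

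Stat4 lay on opposite sides in the tissues. Its log2 ratio in tumor minus that in LN was -0.79 (-0.87 to -0.71, counting error only). The same difference was -0.41 (-0.56 to -0.26) for Jak2 and -0.26 (-0.30 to -0.21) for Jak1, and 0.27 (0.12 to 0.43) for Stat5a. For Stat3 it was 0.06 (-0.01 to 0.13), so that the CPM of this gene was lower in CD8-IFNgRKO cells by a similar size in both tissues. Counted per cell, its log2 ratio was 0.15 in tumor and -0.36 in LN, while those of Jak1 and Jak2 were above 0 in both.

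**Figure D2:**
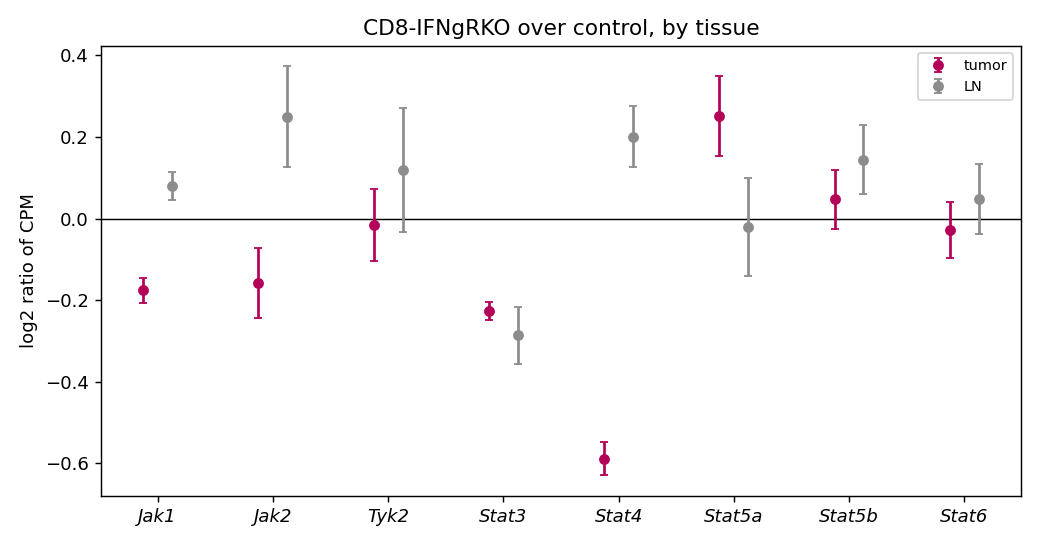
Log2 ratio of CPM, CD8-IFNgRKO over control, for the 8 genes in tumor and LN, with exact conditional binomial 95% intervals as bars, which cover counting error only. Stat4 is at -0.59 in tumor and 0.20 in LN, while Stat3 is below 0 in both.

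Tumor and LN cells were compared next within each genotype, with a threshold of 2-fold. Stat3 was 3.91-fold higher in tumor in control mice (log2 ratio 1.97, 1.92 to 2.02) and 4.08-fold higher in CD8-IFNgRKO mice (2.03, 1.97 to 2.08). In control mice it was the 1 of 8 members past the threshold in the higher direction, as were 16.3% of 8165 genes, and 0 members were past it in the lower direction, as were 11.0%. In CD8-IFNgRKO mice 1 was higher and 1 lower, against 17.5% and 13.0% of 8228 genes, and the lower one was Jak1 at -1.07 (-1.10 to -1.04). The member counts were thus near those of all genes. With the reduced and with the rescaled total 3 members in control and 2 in CD8-IFNgRKO mice were lower past 2-fold, and with thinned cells 0 were in either.

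Stat4 was at 0.80 (0.74 to 0.86) in control mice and at 0.01 (-0.05 to 0.07) in CD8-IFNgRKO mice. The first kept its direction under the other scalings, at 0.51 to 0.95. The second depended on the scaling, at 0.19 with thinned cells and 0.20 as the mean of cell CPM. It was at -0.25 with ribosomal, mitochondrial, TCR and heat shock genes left out of the total. It was at -0.22 with the total rescaled to a median log2 ratio of 0 over a smaller gene set, cut at 50 CPM. Jak1 in control mice was at -0.81, Stat5a at -0.85, Stat5b at -0.82 and Stat6 at -0.65. In CD8-IFNgRKO mice Stat5a was at -0.58, Stat5b at -0.91 and Stat6 at -0.72. These 4 genes were lower in tumor as a share of UMIs in both genotypes. Jak2 was at -0.09 (-0.20 to 0.02) and -0.50 (-0.60 to -0.40), and Tyk2 at 0.32 (0.19 to 0.45) and 0.19 (0.07 to 0.31). Their directions depended on the scaling too. Jak2 in control mice was at 0.09 with thinned cells. Tyk2 in CD8-IFNgRKO mice was at -0.08 with the reduced total and -0.04 with the rescaled one, where in control mice it was at 0.03 and 0.11.

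Per cell, the order turned for the genes with the lower share. Jak1 was at 204 UMIs per 100 cells in control LN and 216 in control tumor, Stat5b at 32.7 and 34.4 and Stat6 at 32.9 and 39.1. Stat3 was at 56.6 and 411. The lower CPM of Jak1, Stat5a, Stat5b and Stat6 in tumor was thus a lower share of a larger number of UMIs per cell. Other markers differed with tissue: 6 markers of exhausted cells summed to 73.6 and 77.9 CPM in the LN and 2755 and 1872 in the tumors, and 7 markers of stem and naive cells to 2700 and 2868 against 184 and 182. The part of cell state in the tissue differences of the members was not tested.

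**Figure D3:**
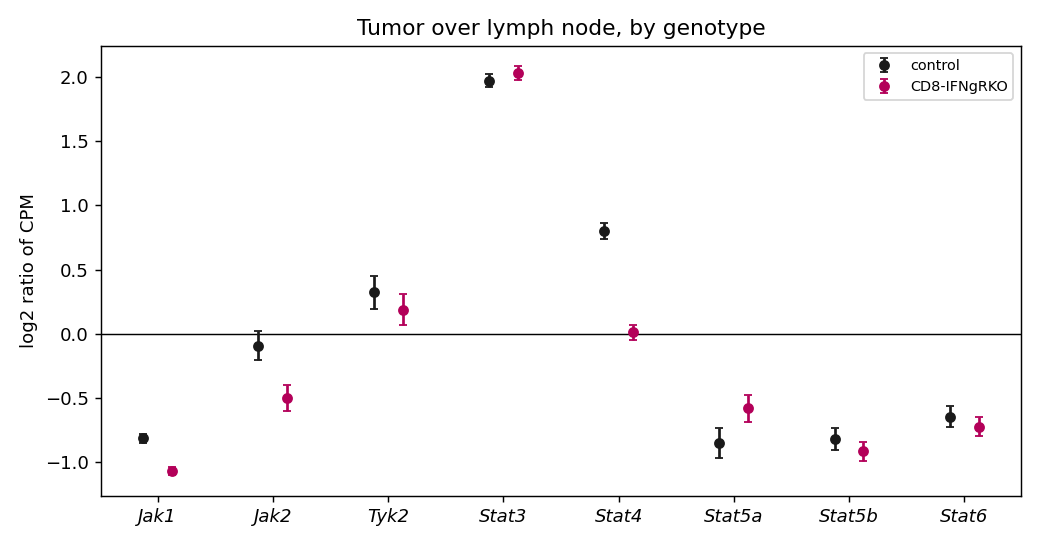
Log2 ratio of CPM, tumor over LN, for the 8 genes in control and CD8-IFNgRKO mice, with exact conditional binomial 95% intervals as bars, which cover counting error only. Stat3 is near 2 in both genotypes, and Stat4 is at 0.80 in control and 0.01 in CD8-IFNgRKO mice.

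Of 44 other genes of the pathway, 36 passed the level filter in the tumor genotype comparison. Of these, 2 were higher and 12 lower past the threshold in CD8-IFNgRKO cells, against 16.7% and 11.9% of all genes. The lower ones included 8 of 14 cytokine receptor chains and 2 of 4 feedback inhibitors, and 0 of 9 other inhibitors and phosphatases. The lowest were Ifnar1, a chain of the type I interferon receptor, at 86.1 and 50.5 CPM in control and CD8-IFNgRKO tumor, Il21r, the IL-21 receptor chain, at 235 and 143, and Cish, a STAT5-induced inhibitor of cytokine signaling, at 106 and 67.3. Log2 ratios were -0.77, -0.72 and -0.65. The highest were Bcl2, a survival gene, at 0.48, Il2ra, the high-affinity IL-2 receptor chain, at 0.37, and Ptpn6, the phosphatase SHP-1, at 0.20, which was not past the threshold.

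In the LN 29 genes passed, with 2 higher and 1 lower, against 1.41% and 1.24% of all genes. Jak3, the remaining JAK, which pairs with Jak1 on receptors that hold the common γ chain, was the lower one, at 89.3 CPM in control and 58.0 in CD8-IFNgRKO (log2 ratio -0.62). The higher ones were Pias2, an inhibitor of the PIAS family, at 0.36 and Bcl2 at 0.33. Il7r, the IL-7 receptor chain, was next at 0.14, and the kinase genes Pim2 and Pim1 followed Jak3 from below at -0.22 and -0.18.

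Between tissues in control mice 39 genes passed, 14 higher and 6 lower in tumor past 2-fold, against 16.3% and 11.0% of all genes. Il12rb2, the inducible IL-12 receptor chain, was at 1.14 CPM in LN and 111 in tumor, Prdm1, which encodes Blimp-1, at 1.20 and 54.2, and Il10ra, the IL-10 receptor chain, at 7.12 and 230. Il6ra was at 77.0 and 0.66 CPM, Il6st, the shared chain gp130, at 68.1 and 7.70, and Il7r at 352 and 61.1. Il6ra, Il6st and Il7r were thus low in tumor and Il12rb2 and Il10ra high, while Il10rb and Il2rg, the partner chains of Il10ra and Il7r, were at log2 ratios of 0.55 and -0.09 and not past the threshold. In CD8-IFNgRKO mice 38 genes passed, 13 higher and 9 lower, against 17.5% and 13.0% of all genes. The highest log2 ratios of tumor over LN were those of Il2ra at 6.05 (5.49 to 6.68), Il12rb1 at 5.64 (5.09 to 6.26) and Prdm1 at 5.52 (5.02 to 6.07). They rest on 25, 26 and 32 UMIs in the LN, and their intervals overlapped. The lowest were Il6ra at -5.87, Il6st at -3.14 and Il7r at -3.03.

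To see which cells held the members' UMIs, the cells of each library were put into classes by counts of marker UMIs after each cell had been thinned to 1600 UMIs. Tumor cells were classed as mitotic, interferon-stimulated, stem and naive marker, or other. These classes are ranges of a marker count and not cell types, and cells with too few UMIs to thin, 41 to 701 per library, were left out. Mitotic cells made up 18.7% of control and 35.0% of CD8-IFNgRKO tumor cells, stem and naive marker cells 5.82% and 6.68%, and interferon-stimulated cells 4.97% and 6.13%. The number of cells 1 marker UMI short of the stem and naive limit, 774 and 960, was larger than the classes themselves, 372 and 558. Median UMIs were 4498.5 and 4544.5 in the stem and naive marker cells against 6441.5 and 9175 in the other cells, and the part of this gap in the class differences was not tested.

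In stem and naive marker cells Jak1 was at 328 and 325 CPM in control and CD8-IFNgRKO tumor, against 262 and 227 in the other cells. Jak2 was at 46.3 and 43.3, against 32.2 and 28.1. Stat4 was at 216 and 177, against 165 and 107. In this class 4 of 8 members were higher than in other cells past the threshold of 0.32 in the control library, where 12.3% of genes were, and 6 of 8 in the CD8-IFNgRKO library, where 17.2% were. In the control library 0 members were lower past it, against 13.6% of genes. The log2 ratios in control and CD8-IFNgRKO were 0.32 and 0.51 for Jak1, 0.53 and 0.62 for Jak2, 0.39 and 0.73 for Stat4, and 0.44 and 0.37 for Stat5a. Stat6 was at 0.29 and 0.40, Stat5b at 0.22 and 0.38. Stat3 at -0.17 and -0.07 and Tyk2 at -0.06 and -0.27 were not higher in these cells. The 8 members thus did not all lie on the same side. Per cell the differences changed. In control this class held 806 Jak1 UMIs in 372 cells against 9834 in 4506 other cells, nearly the same per cell. In CD8-IFNgRKO it held 1179 in 558 against 10426 in 4359, lower per cell. Jak2, Stat5a, Stat5b and Stat6 were also lower per cell in the CD8-IFNgRKO class. Stat4 was slightly higher per cell in both libraries, and Jak2 and Stat5a were higher per cell in control.

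Interferon-stimulated tumor cells had Jak2 at 43.8 and 46.3 CPM, log2 ratios of 0.45 (0.12 to 0.76) and 0.72 (0.47 to 0.96) over the other cells. Past the threshold in the higher direction were 1 of 8 members in control and 2 of 8 in CD8-IFNgRKO, against 11.5% and 15.4% of genes, the second being Stat4 at 0.41 (0.28 to 0.55). In control 0 members were lower past it, with 12.6% of genes. Median UMIs in interferon-stimulated cells were 5084 and 4924, against 6441.5 and 9175 in other cells. They held 90 Jak2 UMIs in 318 control and 155 in 512 CD8-IFNgRKO cells. Other cells held 1209 in 4506 and 1290 in 4359, nearly the same per cell. Stat4 in CD8-IFNgRKO was at 478 UMIs in 512 cells against 4914 in 4359, lower per cell. Mitotic cells had Tyk2 at 23.7 and 25.4 CPM against 30.6 and 31.2 in other cells, log2 ratios of -0.37 and -0.30. Median UMIs in mitotic cells were higher, 12480 and 13246. They held 392 Tyk2 UMIs in 1198 control cells and 1034 in 2925 CD8-IFNgRKO cells. Other cells held 1150 in 4506 and 1430 in 4359, so Tyk2 per cell was higher in mitotic cells. Tyk2 in the control library was the 1 member of either library past the threshold in that class, with 12.4% of genes lower and 16.1% higher in control, and 5.66% lower in CD8-IFNgRKO.

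Stat4 was lower in CD8-IFNgRKO cells in each tumor class. The log2 ratio over control was -0.62 (-0.68 to -0.57) in other cells, -0.53 (-0.60 to -0.45) in mitotic cells, -0.36 (-0.56 to -0.16) in interferon-stimulated cells and -0.28 (-0.45 to -0.11) in stem and naive marker cells. The difference was thus present within the classes. On the CPM scale it was smallest in the stem and naive marker cells, though the intervals of the last 2 classes overlapped. Stem and naive marker cells held 531 Stat4 UMIs in 372 control cells and 644 in 558 CD8-IFNgRKO cells. Other cells held 6205 in 4506 and 4914 in 4359. Counted per cell, the differences in these 2 classes were of similar size, so the order of the classes depended on the scale. It was past the threshold in the first 3, where 13.6%, 8.41% and 14.8% of genes were lower past it, and not in the last, where 14.4% of genes were lower and 18.7% higher past it. Stat5a in interferon-stimulated cells was past it in the higher direction, as were 19.8% of genes, at 0.44 with an interval of -0.13 to 1.03.

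**Figure D4:**
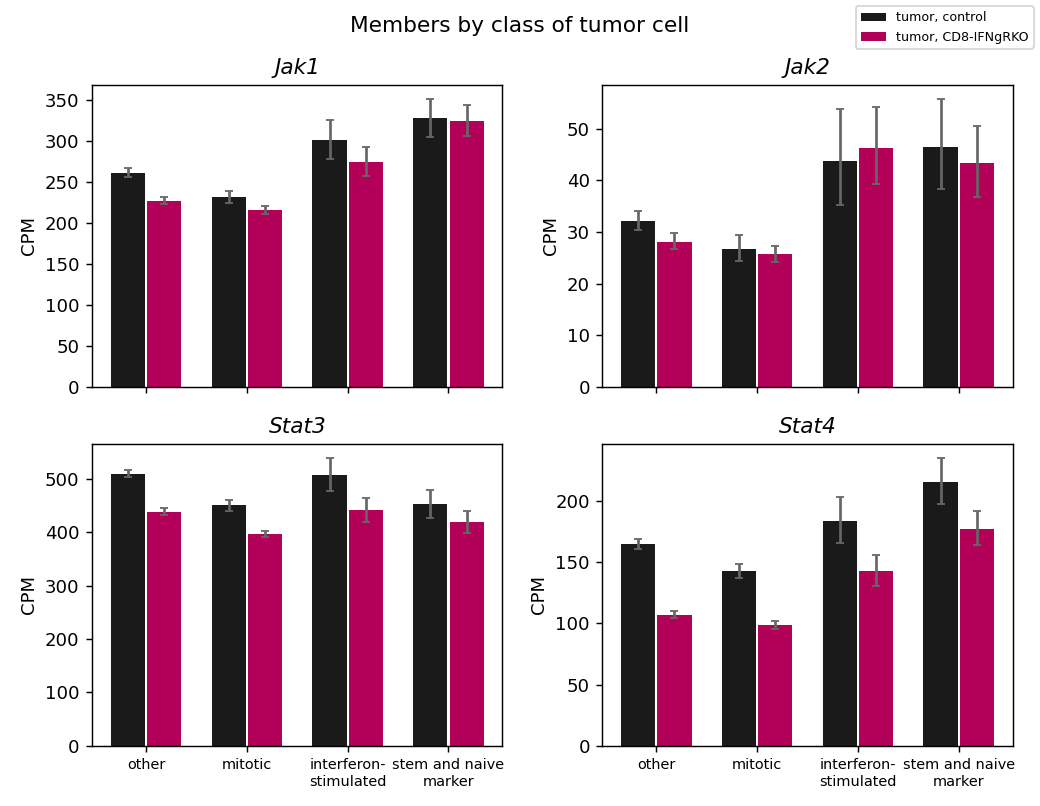
CPM of Jak1, Jak2, Stat3 and Stat4 in 4 classes of tumor cells of the control and CD8-IFNgRKO libraries, with exact Poisson 95% intervals as bars, which cover counting error only. Stat4 is lower in the CD8-IFNgRKO library in each class, at 177 against 216 CPM in stem and naive marker cells and at 107 against 165 in other cells.

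In the LN, cells with at least 2 UMIs of 7 memory-like markers made up 35.8% and 38.5% of cells, and 0 of 8 members differed from the other cells past the threshold, against 1.90% of genes higher and 2.40% lower in control and 1.80% each in CD8-IFNgRKO. Stat4 was at 102 and 115 CPM in them and 86.9 and 99.5 in other cells, log2 ratios of 0.23 (0.12 to 0.34) and 0.21 (0.10 to 0.31). With a limit of 4 UMIs, tried after these values had been seen, the class was 9.09% and 8.93% of cells and the Stat4 ratios were 0.46 (0.30 to 0.61) and 0.44 (0.29 to 0.59). The direction of Stat4 was shared by both limits, and the size depended on the limit. At 4 UMIs 1 member was higher and 3 were lower past the threshold in control, the lower ones being Stat5b at -0.53 (-0.76 to -0.30), Jak2 at -0.40 and Stat5a at -0.33, and 1 was higher and 1 lower in CD8-IFNgRKO, the lower one being Stat5b at -0.33. The shares of genes were 6.92% higher and 9.97% lower in control, and 5.47% and 9.96% in CD8-IFNgRKO. Between genotypes in these cells Jak2 was at 0.51 (0.10 to 0.94) and Stat3 at -0.37 (-0.59 to -0.15), 1 member past the threshold on each side, with 9.66% and 8.96% of genes. Tcf7 was at 557 and 537 CPM in the class at the lower limit and 591 and 568 in the other cells, so that the class did not lack this naive-cell gene. In interferon-stimulated LN cells, 228 and 294 in number, 3 members were lower and 0 higher past the threshold in control, with 15.6% and 12.2% of genes, and 2 higher and 0 lower in CD8-IFNgRKO, with 11.5% and 12.3%. The intervals of the 3 lower members, Jak2, Stat5a and Tyk2, included 0, and those of the 2 higher ones, Stat4 and Stat5a, did not. Between genotypes in these cells 3 members were higher in CD8-IFNgRKO past the threshold and 1 was lower, with 22.8% and 15.8% of genes. The higher ones were Stat5a at 0.84 (0.21 to 1.502), Jak2 at 0.67 (-0.03 to 1.39) and Tyk2 at 0.39 (-0.48 to 1.28), which rest on 20 to 66 UMIs a library, and the lower one was Stat3 at -0.33, and 1 of these 4 intervals lay off 0.

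TCR sequences gave clone sizes that used no member UMI. In the control tumor 183 cells were alone in their clone and 3898 cells fell in 33 clones of 10 or more cells, here called expanded, and in the CD8-IFNgRKO tumor 364 cells were alone and 5410 fell in 29 expanded clones. Single cells had Tcf7 at 353 and 473 CPM, and expanded clones at 4.15 and 4.34. Jak1 was at 390 and 378 CPM in single cells and 247 and 218 in expanded clones, and Stat3 at 300.3 and 241 against 483 and 423. As a share of UMIs, Jak1 was thus lower, and Stat3 higher, in expanded clones in both libraries. Median UMIs in control and CD8-IFNgRKO were 4039 and 3997.5 in single cells and 6324.5 and 10501.5 in expanded clones. Per cell, Jak1 was slightly lower in control expanded clones, 7208 UMIs in 3898 cells against 356 in 183. In CD8-IFNgRKO it was higher per cell, 13551 in 5410 against 660 in 364. The part of depth in the clone differences was not tested. The log2 ratios of expanded over single were -0.66 and -0.79 for Jak1, -0.82 and -0.81 for Jak2, -0.53 and -0.65 for Stat5b and 0.69 and 0.81 for Stat3. Past the threshold of 0.32, 2 members were higher and 4 lower in control, with 30.9% and 24.2% of genes, and 1 higher and 6 lower in CD8-IFNgRKO, with 37.1% and 25.6%.

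On the CPM scale, Stat4 differed between the libraries in this comparison. In single cells it was at 164 CPM in control and 165 in CD8-IFNgRKO, a log2 ratio of 0.01 (-0.28 to 0.30). In expanded clones it was at 161 and 105, a log2 ratio of -0.62 (-0.67 to -0.57). With the largest clone of each library left out, a step added after the data had been seen, the log2 ratio was -0.57 (-0.64 to -0.51). Expanded clones held 4707 Stat4 UMIs in 3898 control cells and 6528 in 5410 CD8-IFNgRKO cells, nearly the same per cell. The Stat4 difference in expanded clones was thus one of share of UMIs. Jak2 in expanded clones was at -0.16 (-0.28 to -0.04) and, without the largest clones, at 0.00285 (-0.14 to 0.15). The largest clones held 28.3% and 27.0% of the expanded cells. In expanded clones Stat4 was the 1 member past the threshold, against 14.1% of genes lower and 17.9% higher. In single cells 0 members were lower past it, against 21.8%, and 1 was higher, against 19.1%, Tyk2 at 0.78 with an interval of -0.11 to 1.76.

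In single clones of 50 or more cells, a size chosen after the data had been seen, Stat4 was at 82.9 to 172 CPM, median 149, in the 10 control clones and at 67.5 to 145, median 96.3, in the 21 CD8-IFNgRKO clones. The groups overlapped, with 7 of the 10 control clones above the highest CD8-IFNgRKO clone and all 21 CD8-IFNgRKO clones below the control median. Depth differed too, with median UMIs of 4525 to 7152 in the control clones and 3211 to 14776.5 in the CD8-IFNgRKO clones. The CD8-IFNgRKO clone highest in Stat4 had the lowest median UMIs, 3211, while the next, at 144 CPM, had 7679. The part of depth in the separation of the clones was not tested. Stat3 was at 400 to 604 CPM in the control and 304 to 546 in the CD8-IFNgRKO clones, with wider overlap. No clone occurred in both libraries. Clones share the library and the mice they came from and are not replicates of a genotype, so no test was made.

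**Figure D5:**
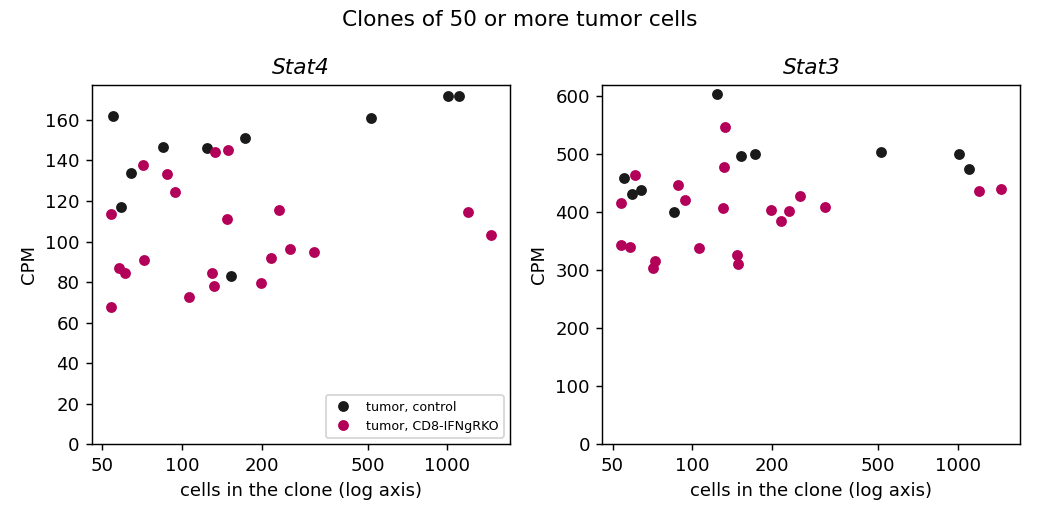
CPM of Stat4 and Stat3 in each clone of 50 or more tumor cells against its number of cells (log axis), each point 1 clone of the control or CD8-IFNgRKO library. Stat4 is above 145 CPM, the highest CD8-IFNgRKO clone, in 7 of 10 control clones.

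The genes with patterns most like each member were taken over 14 groups of cells, 4 tumor and 3 LN classes in each genotype, by Pearson's r of log2(CPM + 1) among genes with at least 20 CPM in every library. These values describe 14 groups that share libraries and depth, and carry no test. Stat3 was most like Bcl2a1b (r = 0.99), Ctla4 (0.99) and Cst7 (0.99), and Jak1 most like Pdcd4, H2-Ke6 and Fam169b (0.99 each). Both lists thus had r near 1, and the tumor and LN groups of these members lay apart. Stat4 was most like Gch1 (0.95), Vps37b (0.94) and Coq10b (0.93), and Jak2 most like Traf6 (0.92), Siah2 (0.91) and Mcl1 (0.87). Stat5a was most like Hbs1l (0.95), Eif5 (0.95) and Rlim (0.94), and Stat5b most like mt-Co1, Clk1 and Dgkd (0.98 each). Stat6 was most like Phf3 (0.98), Lrch3 (0.97) and Ankhd1 (0.97), and Tyk2 most like Lyst (0.88), Rtn4 (0.87) and Aplp2 (0.87).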

How the data were processed

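CD8 T cells were profiled with a 5′ single-cell kit, 1 pool of 3 mice for each tissue of each genotype, with TCR libraries of the tumors. The authors ran Cell Ranger 6.0.0 on mm10, per the labels, and deposited unnormalized UMI counts for each gene in each barcode, and TCR contigs. Work was done in Python (3.11.15) with scipy (1.17.1), numpy (2.4.6), pandas (2.3.3) and matplotlib (3.10.9). A cell needed 200 to 6000 detected genes, no more than 3% of UMIs from mitochondria and 20% from any gene, and a UMI of Cd2, Cd8a and Cd8b1. Cells with 5 or more UMIs of 7 macrophage markers, 1 to 8 per library, were removed in place of the study's cluster removal, and no doublet caller was run. UMIs were summed per library, class or clone size, since cells are not replicates. Intervals are exact, Poisson or conditional binomial at 95%. They were tested on counts simulated from the Poisson model that they assume. That simulation held no variation between cells, mice or libraries and covers counting error only. Classes required, after thinning with a fixed seed, 3 mitotic, 2 interferon-stimulated, 2 stem and naive or 2 memory-like marker UMIs, were exclusive, and members were counted in all UMIs of the cells. These limits were set in the analysis; a limit of 4 for memory-like cells was tried after the values at 2 had been seen and is given beside them. Cells were put in 1 clone when V gene, J gene and CDR3 nucleotide sequence matched for both chains, using the alpha and the beta contig of highest UMI count. Backgrounds use genes at 10 CPM or more in either group, without TCR segments. All members are named, and of the pathway list the 3 highest and 3 lowest ratios. The members, lists and thresholds were chosen with earlier results of these data known. UMIs per cell, the Stat5b share, the sequence motifs, large clones and the removal of the largest clone were added after the data had been seen. Sequences are from RefSeq (GRCm38.p6), in which all 8 members matched.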

Additional observations from a re-analysis of the deposited data

Results flagged for a closer look

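For 6 members the log2 ratio of CPM, CD8-IFNgRKO over control, had opposite signs in tumor and LN. With 1 library per group the difference was not tested. In tumor and LN, Stat4 was at -0.59 and 0.20, Jak2 at -0.16 and 0.25, and Jak1 at -0.176 and 0.081, and for these 3 the counting intervals lay off 0 in both tissues. Jak2 in tumor was at -0.03 as the mean of cell CPM. Stat5a was at 0.25 and -0.0214, Tyk2 at -0.0166 and 0.12, and Stat6 at -0.0279 and 0.0476, with at least 1 interval that included 0. The signs depended on the scale. Counted per cell, the log2 ratios in tumor and LN were 0.20 and 0.01 for Jak1, 0.22 and 0.18 for Jak2, and 0.36 and 0.05 for Tyk2. Stat4, at -0.21 and 0.13, Stat5a and Stat6 kept opposite signs per cell. Stat3, at 0.15 and -0.36, had opposite signs on that scale only.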

How the results depend on the processing

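The tumor genotype count stayed within 1.5 times of 1 under all its alternatives. The LN genotype count went from 0 to 1 with each cell thinned to 1600 UMIs. The count between tissues in control mice went from 1 to 4, the 3 added members all lower in tumor, both with ribosomal, mitochondrial, TCR and heat shock genes left out of the total and with the total rescaled to a median log2 ratio of 0. The first of these moved the median of all genes to -0.28, and to -0.25 in CD8-IFNgRKO mice. The second set to 0 the median of a smaller set, cut at 50 CPM, and not that of the genes compared. The genes compared had medians of 0.04 in control and 0.05 in CD8-IFNgRKO mice, near 0 without rescaling. The rescaling moved Jak1 in control mice from -0.81 to -1.02. Counts with the median of the genes compared set to 0 were not tested. The tissue count in CD8-IFNgRKO mice went from 2 to 1 with thinned cells and with the mean over cells, and to 3, with Stat5b added as lower, under both other totals. The 27 class differences past a log2 ratio of 0.32 became 14 with 1 marker UMI fewer per class, 41 with members counted in thinned UMIs and 33 with the added memory-like limit, so class results depend on the limits. Tyk2 in CD8-IFNgRKO over control in interferon-stimulated LN cells, at 0.39, was at -0.37 with thinned UMIs. The cause of these shifts was not tested. The 15 clone differences were 14 without the largest clones. Of 306 member values under alternatives of the library comparisons, 63 lay outside the counting interval and 6 changed sign, none of them past the threshold as reported, and of 640 class and clone values 64 lay outside it and 58 changed sign, 1 of them past the threshold as reported. No paired analysis was possible because each group has 1 library. Depth limits most the class values of Tyk2, Jak2 and Stat5a, which had the fewest UMIs, and variation between mice was not measured.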
